A study of Mus musculus with 18 samples.

Results

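Integrins, cadherins, claudins, connexins and the catenins and scaffold proteins that anchor them were examined in the ovaries of LHCTP mice, which are exposed to an excess of luteinizing hormone (LH). The members were the probe sets whose single gene symbol in the platform annotation begins with Itga, Itgb, Cdh or Cldn and a digit, or with Gja, Gjb, Gjc, Ctnn or Tjp, together with Itgam, Itgal, Itgax and Itgav. Cdh1, the E-cadherin gene, was not a member. The rule uses names and no measured value, and it found 42 genes, measured by 53 of 13179 probe sets on 2 chip types, 25 on chip A and 28 on chip B. For Itgam and Itgax it found 0 probe sets.

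RNA of whole ovaries had been hybridised to 18 arrays, 1 on each chip type for each of 9 conditions. The 4 untreated transgenic conditions carried the LHCTP transgene and were a cystic ovary of CF-1 mice at 2 months, a granulosa cell tumour of CF-1 at 5 months, a cystic ovary of the CF-1xC57BL/6 F1 hybrid at 2 months and a luteoma of that hybrid at 5 months. A further LHCTP ovary of CF-1 at 5 months had received human chorionic gonadotropin (hCG), an agonist of the LH receptor, and its label likewise says luteoma. The 4 wild-type conditions matched the untreated transgenic ones in strain and age. In LHCTP mice, as background, a chimeric LH beta subunit with a stabilising peptide is made in pituitary gonadotropes, so the transgene acts on the ovary through the circulation. No condition had a second array of its chip type, and the labels do not say how many animals an RNA sample came from. The ovarian identity of the samples shows in Gdf9, an oocyte growth factor, at 1223 to 3790 units on the 9 arrays, and in Inha, the inhibin alpha subunit of granulosa cells, at 10402 to 25616 units. The oocyte coat gene Zp2 was low in CF-1 at 5 months, with 156 units in the tumour and 309 units in the hCG-treated ovary, against 447 units in the wild type.

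Integrins are pairs of an alpha and a beta chain that hold cells to matrix proteins. Cadherins join neighbouring cells and are tied to actin through catenins, claudins seal epithelial and endothelial layers at tight junctions, and connexins form the gap junction channels through which granulosa cells feed the oocyte. In the ovary, N-cadherin (Cdh2) and connexin 43 (Gja1) are the familiar junction proteins of granulosa cells, VE-cadherin (Cdh5) marks endothelium, and Cldn3 and Cldn4 belong to simple epithelia such as that of the oviduct.

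The proximal promoters of 3 members on which the results turn are shown because Cldn3 was the member with the lowest genotype p, Cldn11 was the one past 3-fold in 3 pairs, and Itgb5 was the integrin with the lowest genotype p. The windows come from RefSeq on GRCm38.p6 and run from 250 bases before to 50 bases after the gene start, 5′ to 3′. Of the 42 member genes, 30 were in that promoter table. The Cldn3 window is chr5:134985964-134986263 on the plus strand, the Cldn11 window chr3:31149670-31149969 on the plus strand and the Itgb5 window chr16:33829415-33829714 on the plus strand. Capitals mark the GC box GGGCGG on either strand, which reads CCGCCC where it lies on the other one.
Cldn3: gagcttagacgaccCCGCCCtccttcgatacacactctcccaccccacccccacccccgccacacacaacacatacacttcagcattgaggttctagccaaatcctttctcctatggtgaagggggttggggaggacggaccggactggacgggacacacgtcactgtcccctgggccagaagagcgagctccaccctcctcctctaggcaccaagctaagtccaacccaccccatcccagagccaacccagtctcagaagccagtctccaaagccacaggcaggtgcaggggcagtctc
Cldn11: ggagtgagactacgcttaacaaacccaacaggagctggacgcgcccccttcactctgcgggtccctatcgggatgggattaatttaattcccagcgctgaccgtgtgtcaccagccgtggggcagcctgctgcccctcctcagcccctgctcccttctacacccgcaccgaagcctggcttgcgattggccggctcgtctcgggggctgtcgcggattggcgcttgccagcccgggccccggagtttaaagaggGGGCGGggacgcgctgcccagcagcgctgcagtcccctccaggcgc
Itgb5: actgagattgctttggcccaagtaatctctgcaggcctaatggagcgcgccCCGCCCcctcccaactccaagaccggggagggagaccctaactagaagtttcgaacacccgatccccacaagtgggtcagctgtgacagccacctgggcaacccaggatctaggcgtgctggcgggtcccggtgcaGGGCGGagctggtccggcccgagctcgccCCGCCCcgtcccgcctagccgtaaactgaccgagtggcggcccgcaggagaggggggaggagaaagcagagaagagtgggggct
Of 32851 promoter windows of 300 bases in the same table, 35.7% hold a GC box. The cyclic AMP response element TGACGTCA, held by 1.79% of windows, the steroidogenic factor site CAAGGTCA, held by 1.56%, and the AP-1 site TGANTCA, held by 7.81%, were searched on both strands and are not in these 3 windows. The windows of Ctnnd1 were searched as well and are not shown, and each holds 0 of these sites and 0 GC boxes. A match is a description of the letters and not a bound site.

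Levels are given in units of intensity after the arrays of a chip type had been scaled to a common trimmed mean. Values under a floor of 183.8 units on chip A and 290.7 units on chip B were raised to it before log2, and the detection limit was 2 floors. Of the 53 members, 22 probe sets of 20 genes reached the limit on at least 2 of the 9 arrays and were tested, and 14 of them reached it on all 9. The other 31 were not tested, and 19 of these lay under the floor on every array. Under the floor on all 9 arrays were the probe sets of Itga2, Itga5, Itga7 and Itgb4, of Cdh6, Cdh9, Cdh10 and Cdh11, of Ctnna2, and of Gja3, Gjb2 and Gjb5, so that these data give no level for them. In bulk ovary, fewer cells of a type and less RNA per cell cannot be told apart.

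The comparison of genotypes asked what LH excess changes whatever the strain and age. Itgb5, Ctnnd1 and Gjb1 were higher in each untreated transgenic ovary than in the wild type of its strain and age. Cldn3 was lower there, but it entered the test only through wild-type arrays. The additive fit in limma (8 untreated arrays of each chip type, terms for genotype, strain and age) passed 0 of the 22 members and 0% of the 6408 probe sets tested at a Benjamini-Hochberg adjusted p of 0.05. At an unadjusted p under 0.05 limma gave 4 of 22 members, 3 higher and 1 lower, where 10% of all probe sets had such a p, 4.68% higher and 5.34% lower. The median log2 difference over the 22 tested members was 0.09, with 14 above 0 and 8 below, against 0.00 over all probe sets tested. The same direction in all 4 pairs of one strain and age was found for 6 members upward and 2 downward, where 9.21% and 9.68% of all probe sets did so. Since no condition was repeated, each p measures how far conditions scatter around the additive model and carries no estimate of the spread among animals.

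**Figure D1:**
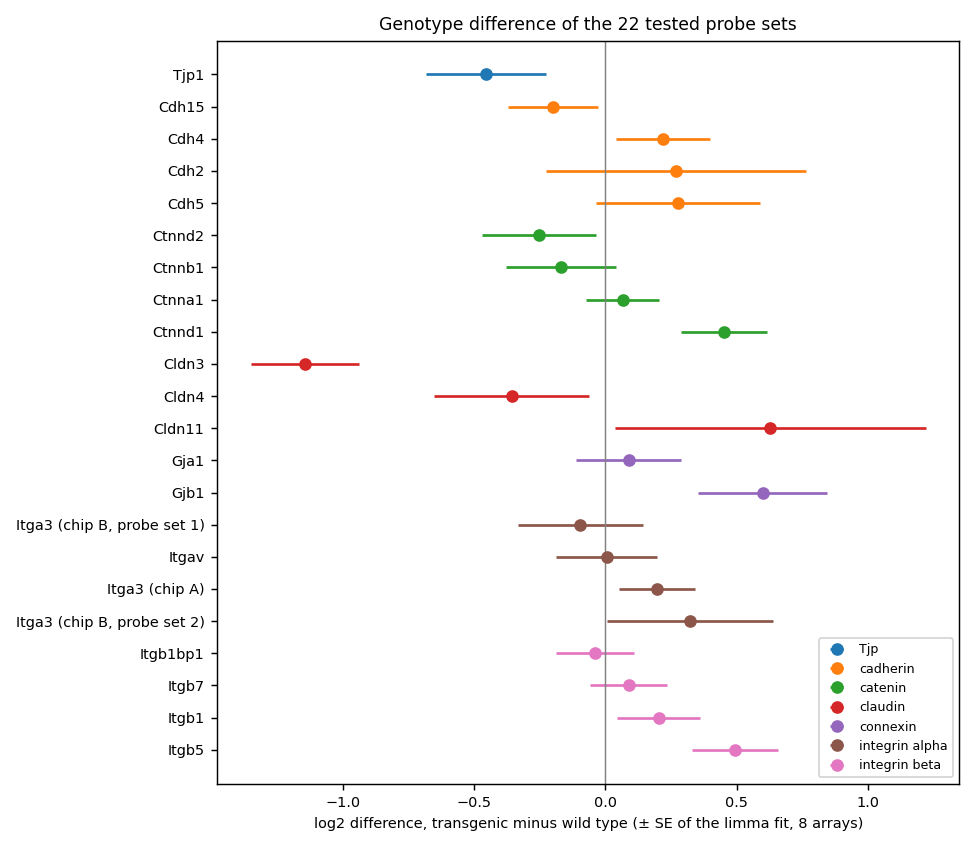
Log2 difference of each tested member probe set, transgenic minus wild type, with the standard error of the limma fit over 8 arrays, coloured by family. Cldn3 at -1.14 stands lowest and Cldn11 at 0.63 has the widest error among the claudins.

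Among the claudins, which seal the space between cells, Cldn3 read 158, 66.5, 19.6 and 185 units in the cystic CF-1 ovary, the tumour, the cystic hybrid ovary and the hybrid luteoma, against 493, 262, 493 and 429 units in their wild types. All 4 transgenic values lay below all 4 wild-type values, although the CF-1 wild type of 5 months was itself under the detection limit. The 3 arrays at the limit were all wild type, so Cldn3 entered the test only through the group where it was high. Its p is thus not independent of the filter. The log2 difference was -1.14 ± 0.21 (SE), with an unadjusted p of 0.000749 and limma's adjusted p = 0.134. Since 3 of the transgenic arrays lay under the floor, pair by pair the transgenic ovary was at least 2.68-fold lower in both strains at 2 months, at least 1.43-fold lower in CF-1 at 5 months and 2.32-fold lower in the hybrid at 5 months. With the floor doubled, that is raised to the detection limit, the log2 difference was -0.27 with an unadjusted p of 0.0799 and adjusted p = 0.586 in limma, so that the unadjusted p no longer fell under 0.05. The hCG-treated ovary read 40.6 units, under the floor as well.

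Markers of epithelium and oviduct were, as a sum, lower in the untreated transgenic ovaries, as Cldn3 was. Their summed level over 13 genes ran from 3716 to 20719 units in the 4 transgenic and from 26057 to 37804 units in the 4 wild-type ovaries. Ovgp1 weighs most in it, with 10829 units in the cystic CF-1 ovary and 19169 units in its wild type. Some markers went the other way. Lsr was higher in each untreated transgenic ovary but the tumour, and Spint1 read 805 units in the hybrid luteoma against 381 units in its wild type. Of 11 tested, 6 had an unadjusted p under 0.05 in limma, 0 higher and 6 lower in transgenic ovaries. Of all probe sets, 4.68% were higher and 5.34% lower at such a p. Epcam and Pax8, which are among the 6, reached the detection limit on wild-type arrays alone. They thus entered the test only through the group where they were high. Elf3 lay under the floor on all 9 arrays. In the hCG-treated ovary the sum was 30061 units, within the wild-type range, while Cldn3 was under the floor. The part of epithelial markers in the Cldn3 difference was not tested.

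Cldn4, another epithelial claudin, read 234, 131, 448 and 154 units in the cystic CF-1 ovary, the tumour, the cystic hybrid ovary and the hybrid luteoma, against 255, 223, 327 and 512 units in their wild types. The groups overlapped, and the log2 difference of -0.36 ± 0.29 (SE) had an unadjusted p of 0.264 and adjusted p = 0.766 in limma. A second Cldn4 probe set read below 0 on every array.

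Cldn11, the claudin of Sertoli cell and myelin tight junctions, was high in the cystic ovaries. It read 790 units in the CF-1 and 633 units in the hybrid cystic ovary, against 180 and 164 units in their wild types, which were both under the floor. At 5 months the direction turned in CF-1, with 169 units in the tumour against 641 units in its wild type. In the hybrid it was kept at a smaller size, with 252 units in the luteoma against 187 units in its wild type, both under the detection limit. The cystic ovaries were thus at least 4.30-fold and at least 3.44-fold higher than their wild types, and the tumour, also under the floor, was at least 3.49-fold lower than its own. These folds depend on where the floor is set. With the floor doubled, Cldn11 was no longer 3-fold apart in any of these pairs. The interaction that follows rests on the same floored values. The interaction of genotype with age was -2.63 ± 0.73 (SE) on the log2 scale, with an unadjusted p of 0.0106 and adjusted p = 1 in limma, where 2.76% of all probe sets had an unadjusted p under 0.05. The hCG-treated ovary read 537 units, near the CF-1 wild type of its age.

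Tjp1, which encodes the tight junction scaffold ZO-1, read 2647, 1076, 2034 and 1560 units in the cystic CF-1 ovary, the tumour, the cystic hybrid ovary and the hybrid luteoma, against 3012, 1893, 2314 and 2406 units in their wild types. It was lower in the transgenic ovary of each pair, but the groups overlapped, and the log2 difference of -0.45 ± 0.23 (SE) had an unadjusted p of 0.0867 and adjusted p = 0.577 in limma. The hCG-treated ovary, at 2772 units, stood 1.46-fold above the CF-1 wild type of 5 months.

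**Figure D2:**
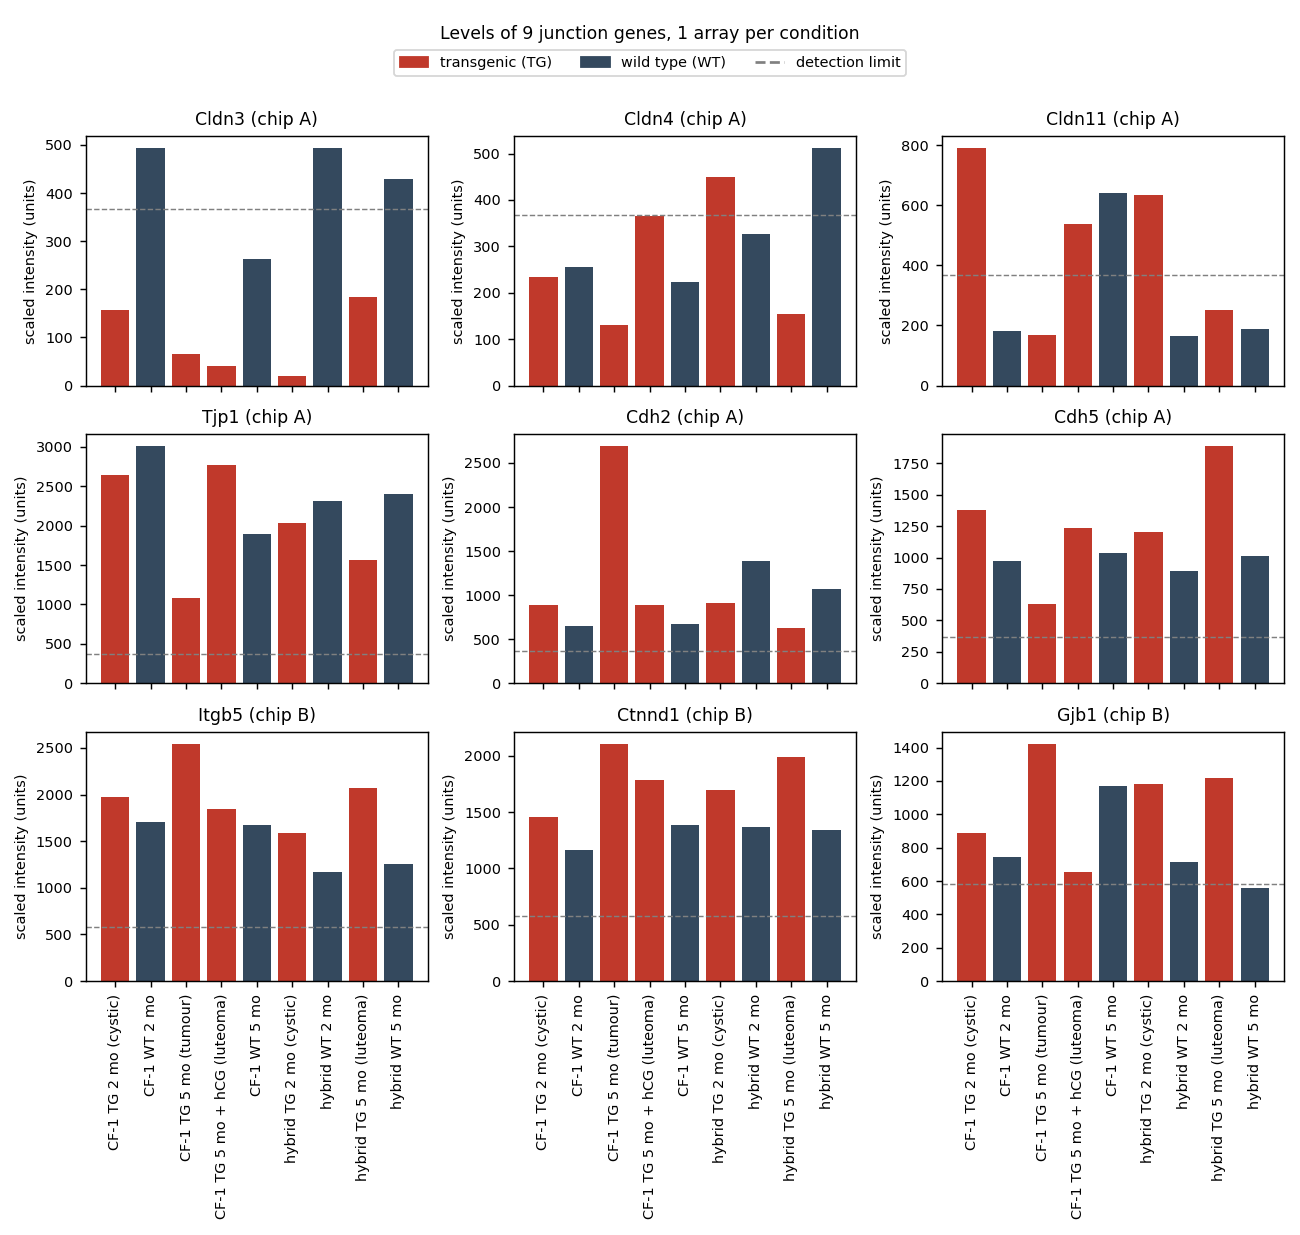
Scaled intensity of 9 junction genes on the array of each condition, with transgenic ovaries in red, wild-type ovaries in dark grey and the detection limit as a dashed line. Cldn3 is under the limit in every transgenic ovary, Cldn11 is above it in both cystic ovaries, and Cdh2 reaches 2693 units in the tumour.

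Among the integrin chains, Itgb5, the beta 5 chain of a vitronectin receptor, read 1973, 2546, 1587 and 2067 units in the cystic CF-1 ovary, the tumour, the cystic hybrid ovary and the hybrid luteoma, against 1707, 1672, 1172 and 1254 units in their wild types. It was higher in the transgenic ovary of 4 of 4 pairs, by 1.16 to 1.65-fold, while the hybrid cystic ovary lay below both CF-1 wild types. The log2 difference was 0.49 ± 0.16 (SE), with an unadjusted p of 0.0177 and adjusted p = 0.429 in limma. Itgb1, the beta chain shared by most matrix receptors, averaged 10399 ± 591 units in transgenic and 9100 ± 1422 units in wild-type ovaries (SD, n = 4 each), a log2 difference of 0.20 ± 0.16 (SE) with adjusted p = 0.742 in limma. It too was higher in each transgenic partner, by 1.02 to 1.30-fold. Itgb1bp1, which binds the tail of the beta 1 chain, averaged 1088 ± 153 units in transgenic and 1122 ± 195 units in wild-type ovaries (SD, n = 4 each).

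The alpha chain Itgav, partner of several beta chains in vitronectin and fibronectin receptors, showed no common direction. In CF-1 it read 4302 units at the cystic stage and 5025 units in the tumour, above 3589 and 3785 units in their wild types. The hybrid cystic ovary and luteoma read 3208 and 2946 units, below the 3993 and 3714 units of their wild types. The interaction of genotype with strain was -0.66 ± 0.32 (SE), with an unadjusted p of 0.0791 and adjusted p = 0.854 in limma. A second, dimmer Itgav probe set also read highest in the tumour, at 426 units against at most 365 units elsewhere.

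Itga3, the alpha chain of a laminin receptor, had 3 tested probe sets that disagreed. The one on chip A averaged 3011 ± 792 units in transgenic and 2608 ± 612 units in wild-type ovaries (SD, n = 4 each) and differed by a log2 value of 0.54 ± 0.14 (SE) between 5 and 2 months. The 2 probe sets on chip B had age differences of -0.02 ± 0.24 and -0.56 ± 0.32 (SE). Their genotype differences were -0.10 ± 0.24 and 0.32 ± 0.32 (SE), so that no direction for the gene can be given.

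The leukocyte integrins were dim. Itgb2, the beta chain shared by neutrophil, macrophage and lymphocyte integrins, was under the chip B floor on 7 of 9 arrays and read 361 units in the hCG-treated ovary, against 520 units in the CF-1 wild type of its age. The sum of 15 macrophage and leukocyte markers was 35680 to 59428 units in the 4 untreated transgenic ovaries and 50642 units in the hCG-treated one, against 30883 to 81245 units in the wild types, where the 5-month CF-1 ovary was highest. Lyz2 weighs most in this sum, with 21815 of 45844 units in the tumour. Itgb7, the beta chain of gut-homing lymphocyte integrins, averaged 342 ± 53.4 units in transgenic and 322 ± 58.8 units in wild-type ovaries (SD, n = 4 each). Its level in the hCG-treated ovary was 502 units, above the range of 254 to 395 units in the 8 untreated ones. The sum of 8 lymphocyte markers was also highest in the hCG-treated ovary, at 8946 units, against 3354 to 5736 units in the untreated transgenic and 5566 to 6855 units in the wild-type ovaries. Igha, Jchain and Cd3e were highest there, the first of them at 2679 units against 1698 units in the CF-1 wild type of that age, whereas Cd79b read 252 against 594 units and Ms4a1 was not highest. Itgal, the alpha chain of the lymphocyte integrin LFA-1, read at most 310 units and Itga4, the alpha chain of VLA-4, at most 229 units, both under the detection limits. The part of leukocyte markers in these levels was not tested.

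Of the cadherins, Cdh2 had its highest level in the granulosa cell tumour. It read 889, 2693, 906 and 624 units in the cystic CF-1 ovary, the tumour, the cystic hybrid ovary and the hybrid luteoma, against 648, 668, 1391 and 1067 units in their wild types, and 888 units in the hCG-treated ovary. The tumour stood 4.03-fold above its wild type and 1.94-fold above the next array, the hybrid wild type of 2 months. In CF-1 both transgenic ovaries were above their wild types and in the hybrid both were below, by 1.53 and 1.71-fold. This interaction of genotype with strain was -1.93 ± 0.73 (SE), with an unadjusted p of 0.0362 and adjusted p = 0.854 in limma, where 5.43% of all probe sets had an unadjusted p under 0.05. The summed level of 8 granulosa markers was 74224 units in the tumour and 34520 to 54327 units in the other 8 ovaries. The markers did not move together: Hsd17b1, Inhba, Inhbb, Nr5a2 and Fst read highest in the tumour of all 9 arrays, Amh at 415 units and Wt1 at 1219 units read lowest there, and Inha lay within the range of the others. The part of granulosa cell content in the Cdh2 level was not tested.

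Cdh5, the endothelial VE-cadherin, read 1375, 632, 1202 and 1888 units in the cystic CF-1 ovary, the tumour, the cystic hybrid ovary and the hybrid luteoma, against 975, 1037, 893 and 1012 units in their wild types. It was lowest in the tumour, 1.41-fold below the next array, and highest in the hybrid luteoma. The 9 endothelial markers on the chips summed to 8848 units in the tumour and 22176 units in the hybrid luteoma, against 8097 to 13180 units in the wild types. The tumour sum thus lay within the wild-type range, and Eng alone gave 11920 units of the luteoma sum. Kdr, Tie1, Tek, Icam2, Pecam1 and Flt1 also read higher in the luteoma than in its wild type. Emcn and Cd34 read lower, at 176 against 352 and 837 against 1337 units. The part of endothelial markers in the Cdh5 level was not tested. The genotype difference of Cdh5, 0.28 ± 0.31 (SE), had adjusted p = 0.832 in limma. A second Cdh5 probe set lay under the floor on all 9 arrays.

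Cdh15, the M-cadherin of muscle, averaged 639 ± 142 units in transgenic and 721 ± 66.9 units in wild-type ovaries (SD, n = 4 each) on chip A and lay under the floor on chip B. Cdh4, R-cadherin, read 344 and 380 units in the CF-1 and hybrid cystic ovaries, against 326 and 232 units in their wild types. The tumour and the hybrid luteoma read 97.9 and 195 units, against 28.8 and 118 units in the 5-month wild types. In the hCG-treated ovary of 5 months Cdh4 read 373 units, second only to the hybrid cystic ovary. Cdh3, the P-cadherin of epithelia, reached the detection limit on 1 array, the hybrid wild type of 2 months, at 601 units, and read 277, 203, 418 and 164 units in the cystic CF-1 ovary, the tumour, the cystic hybrid ovary and the hybrid luteoma. All of these but the 418 units were under the floor, as was the wild type of the tumour at 268 units, so that the CF-1 pair of 5 months gives no direction.

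Among the catenins, Ctnnd1, the p120 catenin that holds cadherins at the membrane, had transgenic values that all lay above all wild-type values, and every array was past the detection limit. It read 1460, 2107, 1700 and 1985 units in the cystic CF-1 ovary, the tumour, the cystic hybrid ovary and the hybrid luteoma, against 1166, 1386, 1371 and 1337 units in their wild types. A separation of the groups with the brighter one at the limit was found for 1 tested member upward and 0 downward, where 1.75% and 1.89% of all probe sets had it. For Ctnnd1 limma gave a log2 difference of 0.45 ± 0.16 (SE), an unadjusted p of 0.0262 and adjusted p = 0.462. Ctnna1, alpha catenin, which couples the cadherin complex to actin, averaged 13858 ± 920 units in transgenic and 13263 ± 1228 units in wild-type ovaries (SD, n = 4 each), and all 4 pairs were within 1.08-fold. Ctnnb1, beta catenin of junctions and the Wnt pathway, averaged 2427 ± 682 units in transgenic and 2710 ± 599 units in wild-type ovaries (SD, n = 4 each), with adjusted p = 0.849 in limma. The hCG-treated ovary read 3351 units of Ctnnb1, 1.79-fold above the CF-1 wild type of 5 months. Ctnnbip1, an inhibitor of beta catenin, lay under the floor on 8 of 9 arrays.

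The connexins split between a bright and a dim part. Gja1 read 16331, 14836, 16143 and 9874 units in the cystic CF-1 ovary, the tumour, the cystic hybrid ovary and the hybrid luteoma, against 14772, 10869, 13161 and 14234 units in their wild types. The hybrid luteoma was thus the lowest of the 9 arrays and the other 3 transgenic ovaries stood above their wild types, with a log2 difference of 0.09 ± 0.20 (SE) and adjusted p = 0.916 in limma. Gjb1, connexin 32, read 888, 1424, 1182 and 1217 units in the same 4 transgenic ovaries, against 742, 1168, 712 and 558 units in their wild types. It was higher in 4 of 4 pairs, although the CF-1 wild type of 5 months lay above the cystic CF-1 ovary. Its log2 difference was 0.60 ± 0.25 (SE), with an unadjusted p of 0.0418 and adjusted p = 0.489 in limma. In the hCG-treated ovary Gjb1 read 657 units, 1.78-fold below the CF-1 wild type of its age.

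Of the dim connexins, Gjc1, connexin 45, reached the detection limit in the tumour alone, at 582 units, against at most 353 units on the other arrays. Gjb6, connexin 30, read 680 units on chip A in the hCG-treated ovary and at most 268 units elsewhere, at least 3.70-fold above the CF-1 wild type of 5 months, but its chip B probe set was under the floor on all 9 arrays. Gja4, connexin 37 of oocyte gap junctions and vessels, read at most 466 units on either of its probe sets. Gja5, connexin 40 of arteries, reached the limit in the hybrid cystic ovary, at 613 units.

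The tumour was next set against the other 8 conditions. At least 3-fold beyond every other array it had 0 of the 22 tested members, where 0.281% of all probe sets were that far above and 0.609% that far below. By any margin, 6 tested members were highest there, where 21% of all probe sets were, and 4 were lowest, where 14.8% were. The highest were Cdh2, Itgb5 with 1.23-fold over the next array, Gjb1 and Itgav with 1.17-fold each, Itga3 on chip A and Ctnnd1. The lowest were Tjp1, 1.45-fold below the next array, Cdh5, Ctnnb1 and Itgb1bp1, the last 2 by 1.03-fold each. For both luteomas together, 0 tested members stood at least 2-fold beyond the other 7 arrays on either side, where 0.0468% of all probe sets did so above and 0.0312% below.

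**Figure D3:**
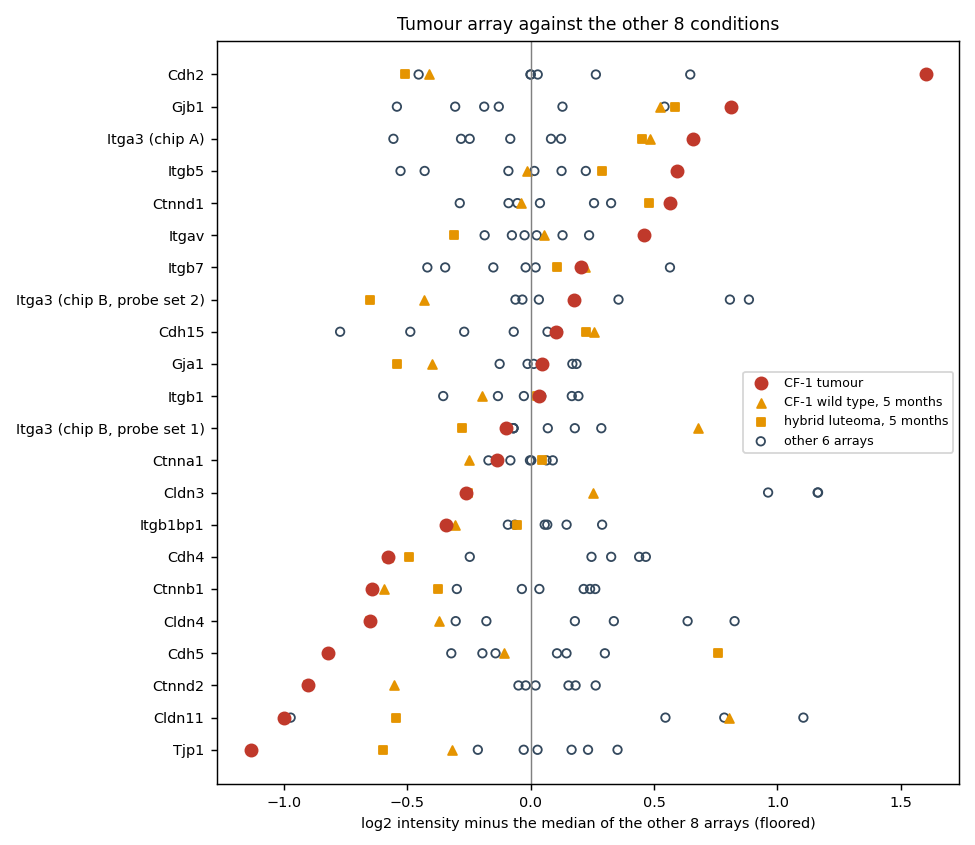
Log2 intensity of each tested member relative to the median of the 8 arrays other than the tumour, with the tumour in red, the CF-1 wild type and the hybrid luteoma, both of 5 months, in orange and the other 6 arrays as open circles. Cdh2 lies farthest to the right and Tjp1 farthest to the left, and for Gjb1 and Itga3 the orange points lie near the tumour.

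Between single transgenic and wild-type arrays few members differed by 3-fold. Those that did were Cldn11 in the CF-1 pair of 2 months, where 1.23% of all probe sets did, Cldn11 and Cdh2 in the CF-1 pair of 5 months, where 4.42% did, and Cldn11 in the hybrid pair of 2 months, where 2.23% did. With the floor doubled, Cdh2 alone of these still differed by 3-fold. In the hybrid pair of 5 months 0 tested members differed so far, where 3.84% of all probe sets did, and in the hCG-treated against the wild-type ovary of CF-1 0 did, where 3.64% did. Within 1.5-fold were 19, 14, 15 and 13 of the 22 members in CF-1 at 2 months, CF-1 at 5 months, the hybrid at 2 months and the hybrid at 5 months, that is 86.4%, 63.6%, 68.2% and 59.1%. Of all probe sets tested, 83.1%, 71.4%, 76.3% and 65.2% were within 1.5-fold in the same pairs. The comparisons of the tumour and of the hCG-treated ovary share 1 wild-type array. These pairs have 1 array on each side and no replicate check.

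**Figure D4:**
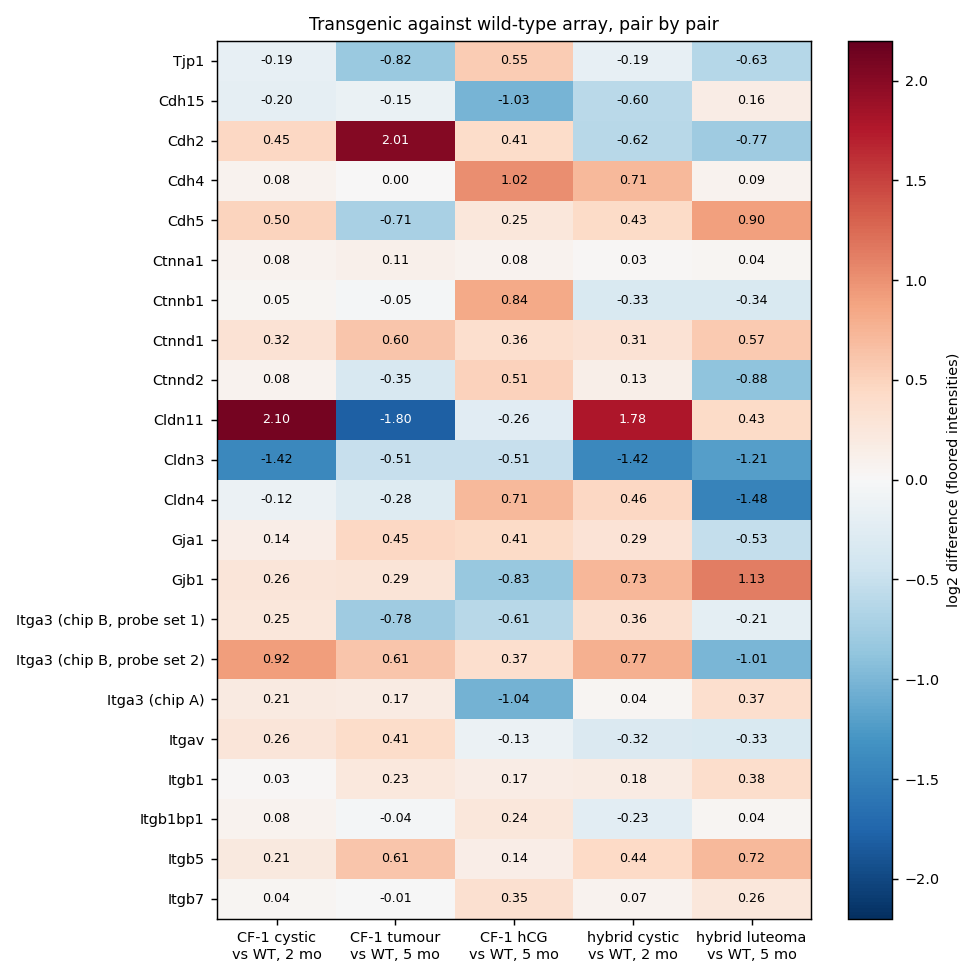
Log2 difference of each tested member between the transgenic and the wild-type array of a pair, after flooring, with red for higher and blue for lower in the transgenic ovary. Cldn11 is at 2.10 and 1.78 in the cystic pairs and at -1.80 in the tumour pair, and Cldn3 is below 0 in all 5 columns.

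The control probe sets give a limit that touches several members. On the 55 Affymetrix control probe sets of a chip, the tumour, the hybrid luteoma and the 5-month CF-1 wild type correlated with each other, with r between 0.27 and 0.63 for chip A and between 0.26 and 0.79 for chip B, a description across probe sets. Other pairs of arrays ranged from -0.70 to 0.53 on chip A and from -0.77 to 0.45 on chip B, so that some correlated as highly as these. Itga3 on chip A was higher on these 3 arrays than on the other 6, and Ctnnb1 and Tjp1 were lower, where 8.01% and 8.58% of all probe sets separated so. Itga6, a laminin receptor chain under the detection limit, also read highest on them, at 474, 394 and 345 units in the tumour, the hybrid luteoma and the CF-1 wild type, against at most 173 units elsewhere. With a term for this profile, chosen after the data were seen and giving the same genotype estimate as a fit that omits the 5-month hybrid wild type, the genotype difference was -1.08 for Cldn3, 0.45 for Itgb5, 0.39 for Ctnnd1 and 0.37 for Gjb1. The unadjusted p in limma was then 0.0576 for Ctnnd1 and 0.109 for Gjb1, both past 0.05, and stayed under it for Cldn3 and Itgb5.

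Age and strain came from the same fit. Between 5 and 2 months 0 members passed in limma after adjustment, where 0.0156% of all probe sets did, and 4 had an unadjusted p under 0.05, 1 higher and 3 lower, where 19.5% of all probe sets had one, 9.63% higher and 9.91% lower. At 5 months Cdh4 was lower by a log2 value of -0.76 ± 0.18 (adjusted p = 0.142 in limma), Ctnnd2, the neural delta catenin, by -0.75 ± 0.22 (adjusted p = 0.170) and Tjp1 by -0.57 ± 0.23 (adjusted p = 0.238). Itga3 on chip A was higher by 0.54 (adjusted p = 0.159 in limma), and Itgb1bp1 had a difference of -0.34 ± 0.15 (adjusted p = 0.266). With the floor doubled the age difference was -0.01 for Cdh4, which lay under the floor on 3 arrays, and -0.08 for Ctnnd2, which did so on 2, with unadjusted p of 0.919 and 0.527 in limma. Ctnnd2 reached the detection limit on 3 arrays, all of 2 months, so it entered the test only through the age where it was high. Cdh4 reached it on 2, the cystic hybrid ovary and the hCG-treated ovary of 5 months, which is outside the fit. The control-probe profile covers 3 of the 4 untreated arrays of 5 months, so age and profile cannot be told apart here. When the hybrid wild type of 5 months was omitted, Ctnnd2 passed in limma, at -0.96 with adjusted p = 0.0467. In that fit 9 members had an unadjusted p under 0.05 in limma. No share of all probe sets was computed for it, so the count of 9 is not a result about the members.

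For strain, hybrid against CF-1, 0 members passed in limma after adjustment, where 0.0312% of all probe sets did, and 1 had an unadjusted p under 0.05, where 7.88% had one, 4.32% higher and 3.56% lower. That member was Itgb5, at -0.39 ± 0.16 (adjusted p = 0.624 in limma). The next were Cldn4 at 0.62 ± 0.29, Itgb7 at -0.31 ± 0.15, Itga3 on chip A at -0.29 and Itgav at -0.27 ± 0.19, with adjusted p of 0.670 to 0.753 in limma. With the floor doubled the strain difference was 0.19 for Cldn4 and -0.05 for Itgb7. Cldn4 reached the detection limit on 2 arrays, both hybrid. Itgb7 reached it on 3, all CF-1, among them the hCG-treated ovary, which is outside the fit. Each thus entered the test only through the strain where it was high, so its p is not independent of the filter.

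Other adhesion genes on the chips were read beside the members. Of desmosome and tight junction genes, 6 were tested, of which 0 were higher and 2 lower at an unadjusted p under 0.05, where 4.68% of all probe sets were higher and 5.34% lower, and 0 passed in limma after adjustment. These were Dsp, desmoplakin, with a log2 difference of -1.07 (adjusted p = 0.165), and Dsg2, a desmosomal cadherin, with -0.68 (adjusted p = 0.294). Dsp read 1860, 1298, 1280 and 823 units in the cystic CF-1 ovary, the tumour, the cystic hybrid ovary and the hybrid luteoma, against 3213, 2961, 1977 and 2604 units in their wild types. Of focal adhesion genes, the intracellular partners of integrins, 10 were tested, with 2 higher and 0 lower at an unadjusted p under 0.05, against the same 4.68% and 5.34% of all probe sets. They were Zyx, zyxin, with a difference of 0.88 (adjusted p = 0.424), and Vasp, an actin regulator, with 0.45 (adjusted p = 0.470).

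In the immunoglobulin and nectin adhesion list 7 genes were tested, with 2 higher and 0 lower at an unadjusted p under 0.05, again beside 4.68% and 5.34% of all probe sets. Vcam1, a ligand of alpha 4 integrins, read 1714, 3719, 1453 and 2361 units in the cystic CF-1 ovary, the tumour, the cystic hybrid ovary and the hybrid luteoma, against 359, 3685, 360 and 318 units in their wild types. Its level was thus high, at 3506 units, in the hCG-treated ovary and also in the 5-month wild type of CF-1, and the log2 difference of 1.79 had adjusted p = 0.382 in limma. Nectin2, a junction nectin, had a difference of 1.49 (adjusted p = 0.447). Of connexin-partner genes 2 were tested, with 0 in either direction at an unadjusted p under 0.05, and of protocadherin-like genes 0 were tested.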

How the data were processed

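The deposited intensities, 1 per probe set and array on a linear scale, were used as given. How the authors computed them is a step not given in the sources used here. Between 13.6% and 30.1% of the values of an array were below 0. The mean without the lowest and highest 2% of an array's values lay, before scaling, between 907 and 1756 units for chip A, between 542 and 921 units for chip B. Each chip type was scaled to the mean of these. For the floor, the 25th percentile and the absolute value of the 5th were taken on every array, the higher was kept, and the median over arrays was used. On each chip 76 control or shared probe sets were left out of the tests. Symbols came from the platform annotation, updated by Entrez number through GRCm38.p6 gene models.

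The fit was limma 3.58.1 in R 4.3.3 (lmFit, eBayes) with 4 residual degrees of freedom, tested on simulated data, and its p-values were Benjamini-Hochberg adjusted across the probe sets of both chips at once. Interactions were fitted with 3. The members and lists were chosen with earlier results of these data known. Named members were the 10 with the lowest p for genotype, the 5 lowest for age and strain, up to 6 a side for the tumour, those 3-fold apart in a pair, the brightest of each family and genes with several tested probe sets. Other named members were chosen after their values were seen. Alternatives were a doubled floor, no filter, quantile normalization, trend and robust variances, a block for the 4 pairs and each array left out. For the chip B tumour array, the title and source were followed where the description gives 2 months.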

Additional observations from a re-analysis of the deposited data

How the results depend on the processing

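The counts given here are tested members at an unadjusted p under 0.05 in limma, unless said otherwise. Shares of all probe sets under the alternatives are not given, so a change in a count is not a result about the members. With the floor doubled the count was 2 for strain and 2 for each interaction of genotype, against 1 each. The same setting left 0 members at least 3-fold apart in either pair of 2 months and in the hCG-treated pair, and 1 in the CF-1 pair of 5 months, against 1, 1, 1 and 2 over all 53 members. With no filter on dim probe sets, which admits more members, the count was 9 for age, 4 for strain and 2 for genotype by age. With trend and robust variances it was 2 for strain and 2 for genotype by strain. Leaving out 1 array in turn gave 2 to 5 for genotype, 3 to 9 for age and 0 to 2 for strain, and after adjustment 0 for genotype and strain and 0 to 1 for age, the 1 being Ctnnd2 without the hybrid wild type of 5 months. The genotype count was 2 when the 2-month CF-1 wild type was omitted and 2 when the cystic hybrid ovary was. The term for the control-probe profile gave 0 for age and 0 for strain, and by its construction it leaves the age difference to 1 array of 5 months.

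Over the 268 recomputed values of the 20 named differences 0 changed direction, but the alternatives reuse the same arrays. Cdh4 was not tested under quantile normalization and has no value there. With the floor doubled its genotype difference was 0.01. The Cldn3 difference ran from -1.35 to -0.27 with adjusted p of 0.0996 to 0.586, and that of Itgb5 from 0.43 to 0.57. A block for the 4 pairs of one strain and age gave 5 members for genotype against 4, Tjp1 being the added one with an unadjusted p of 0.0462, and 0 after adjustment. No paired analysis by replicate number was possible because each condition has 1 array per chip type. The causes of these shifts were not tested. Signal over background limits the claudins, Cdh4, Ctnnd2, most connexins and the leukocyte integrins, which lie near the floor.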

Other observations

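The integrin signalling adaptor Tgfb1i1 (Hic-5) read 6504 units in the tumour, against at most 3162 units on the other 8 arrays, a value chosen for mention after it was seen. Fermt2, the kindlin that activates integrins, read 8683 units in the tumour, against at most 5858 units elsewhere, also chosen after it was seen. The tumour has 1 array on chip A.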
